A study of Mus musculus with 2 samples.

Results

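CD8 T cells, the lymphocytes that recognise peptides on MHC class I and kill the cells that display them, were examined in lungs of tumor-bearing mice. They were selected by gene counts from 10x single-cell RNA-seq data, in which a unique molecular identifier (UMI) counts each captured transcript once. A cell was kept with 500 to 5000 detected genes, under 7.5% mitochondrial UMIs and under 5% of UMIs from S100a8 and S100a9, the abundant neutrophil transcripts. It then needed at least 2 UMIs of Cd3d, Cd3e and Cd3g together, at least 1 UMI of Cd8a or Cd8b1, none of Cd4 or Csf1r, and under 4 of Cd79a and Cd79b. The gate held 189 of 16995 cells, with 102 of 8662 in the saline library and 87 of 8333 in the nanoparticle library.

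Both libraries came from 12-week-old female BALB/cJ mice inoculated with 100000 cells of 4T1, a mouse mammary carcinoma line that the methods name as 4T1-luc2-tdTomato, a derivative with luciferase and fluorescent reporters. Saline or PLG nanoparticles (NPs), polymer particles without a drug cargo, were given intravenously every 3 days from day 1 in 5 doses, and lungs were taken on day 14. Each library pooled the lungs of 4 mice by the labels, while the methods give another number, so there was 1 library per treatment and no replicate. No test was therefore made, and every interval given here is a 95% interval for counting error only, which does not cover differences between mice or preparations. For gene levels the intervals take UMIs as independent, so they do not cover the uneven spread of a gene's UMIs over cells. They are too narrow where few cells hold most UMIs of a gene.

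As background, a naïve CD8 T cell circulates through lymph nodes, guided by Ccr7, and keeps the transcription factors Tcf7 and Lef1. After it meets antigen it divides and becomes an effector cell that releases granzymes, perforin, interferon gamma and the chemokines Ccl4 and Ccl5. Memory cells persist afterwards with more receptors for cytokines and inflamed tissue. Lung holds naïve cells passing through its dense vasculature as well as effector and memory cells, some of which stay in the tissue.

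The gated cells carried T cell transcripts that the gate had not used. Trac, the constant region of the alpha chain of the T cell receptor, was detected in 96 of 102 saline and 80 of 87 NP cells, and the kinase Lck in 95 and 78. Cd8b1 had at least 1 UMI in 102 saline and 86 NP cells, as the gate makes likely. Of the 5 genes taken as markers of these cells, Gzmk, a granzyme of memory cells, was nearly absent, with 9 UMIs in 3 saline cells and 6 UMIs in 4 NP cells. The NK cell genes Ncr1 and Klrb1c, and the markers of other innate-like T cells, had too few UMIs to be measured, and 4 cells of each library held a UMI of Ncr1, Klrb1c, Trdc or Zbtb16. All 4 dendritic cell markers were at 0.

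Cells near the edges of the gate were few. Cd8a and Cd8b1 together gave exactly 1 UMI in 8 saline and 7 NP cells, against medians of 7.5 and 9. No cell had exactly 2 Cd3 UMIs. A limit of 1 Cd3 UMI would have added 0 saline and 1 NP cell, and dropping the S100a8 and S100a9 limit would have added 2 and 5. The cells had a median of 7109.5 UMIs in the saline library (3297 to 13791) and of 7638 in the NP library (2934 to 33244), which summed to 761752 and 732598 UMIs. No barcode was gated in both libraries. Depths of 33244 and 25669 UMIs, both in the NP library, stood apart from the rest, and several ratios are given also without these 2 cells, which were left out after their values were seen.

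The frequency of CD8 T cells depended on what it was divided by. In the saline library they made up 1.18% of all cells (0.961 to 1.43%, Clopper-Pearson), and in the NP library 1.04% (0.837 to 1.29%), a log2 ratio of -0.17 (-0.58 to 0.24). Among T cells with Cd4 or Cd8 transcripts alone they were 38.6% of 264 and 38.2% of 228 cells, a log2 ratio of -0.02 (-0.34 to 0.31). Against the cells under the S100a8 and S100a9 limit the shares were 3.28% of 3113 and 1.68% of 5190, a log2 ratio of -0.97, and that ratio was -0.12 with the limit lifted. That limit kept 3113 of 8662 saline and 5190 of 8333 NP cells, so this denominator differed between the libraries.

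Levels were compared as CPM, the UMIs of a gene summed over the CD8 T cells of a library per 1000000 UMIs of these cells. A gene was measured with at least 20 UMIs over both libraries, and a difference of at least 2-fold was counted. Of 6174 measured genes, 283 were at least 2-fold higher in the NP library (4.58%) and 151 at least 2-fold lower (2.45%). By any amount 51.0% were higher and 49.0% lower, and the median log2 ratio was 0.02. Without the cells that carried at least 10 UMIs of monocyte, macrophage or endothelial markers, 177 genes were at least 2-fold higher and 179 lower. Those cells were left out after the data were seen. In pooled cells, fewer cells with a transcript and less of it per cell cannot be told apart from the level alone, so cell numbers are given too.

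Naïve genes were lower in the NP library, each by a modest amount. All 25 genes of the naïve list were measured, 21 of them lower and 4 higher, with a median log2 ratio of -0.33 against 0.02 for all genes. None reached 2-fold, and for 10 of the 25 the counting interval lay below 0, as it did for 5.38% of all genes. Without the 2 deepest NP cells the median was -0.23, and 7 intervals lay below 0. Lef1 (chromosome 3, 131110471 to 131224356), a transcription factor of naïve and memory-forming T cells, was at 471 CPM in saline and 332 in NP cells, a log2 ratio of -0.51 (-0.75 to -0.27). Its UMIs came from 88 saline and 68 NP cells.

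Tcf7, its partner factor, was at 269 and 213 CPM (log2 -0.34, -0.65 to -0.03). The lymph node receptor Ccr7 was at 419 and 347 CPM (-0.27, -0.52 to -0.03). Without the 2 deepest NP cells Tcf7 was at -0.23 (-0.54 to 0.08) and Ccr7 at -0.18 (-0.43 to 0.06), and with mitochondrial UMIs under 5% Ccr7 was at -0.10, so that the intervals of these 2 genes then spanned 0.

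Klf2, which keeps T cells circulating through transcription of S1pr1 and other genes, was at 1868 and 1414 CPM (-0.40, -0.52 to -0.29). Satb1, a chromatin organizer of T cells, was at 415 and 300 CPM (-0.47, -0.72 to -0.21). Ltb, which encodes lymphotoxin beta, was at 738 and 557 CPM (-0.41, -0.59 to -0.22). These genes were read in most cells of both libraries, Klf2 in 101 of 102 saline and 85 of 87 NP cells, Ltb in 101 and 82 and Satb1 in 89 and 71.

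Tdrp had the lowest ratio of the list, with 122 and 65.5 CPM (-0.90, -1.43 to -0.38), and was found in 54 saline and 32 NP cells. Actn1, an actin crosslinker, and Cd27, a costimulatory receptor, followed at -0.64 (-1.04 to -0.24) and -0.52 (-0.89 to -0.16). Il7r, the receptor for the survival cytokine IL-7, differed little, with 613 and 568 CPM (-0.11, -0.30 to 0.08), and so did S1pr1, the receptor for exit from lymph nodes (-0.11, -0.38 to 0.17). The 4 genes with ratios above 0 were Id3, Foxo1, Dapl1 and Pik3ip1, and all their intervals spanned 0.

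Genes of the memory list were higher in the NP library, though the list also holds genes of effector cells, such as Id2 and S100a4. Of 30 listed, 27 were measured, with 24 higher, 3 lower and a median log2 ratio of 0.77. At least 2-fold higher were 10 of the 27 (37.0%, against 4.58% of all genes), and 1 was at least 2-fold lower. Lgals1, which encodes galectin-1, was at 206 CPM in saline and 859 in NP cells (2.06, 1.80 to 2.32). S100a6, a calcium-binding protein, was at 239 and 829 CPM (1.79, 1.55 to 2.04), but at 0.39 with the S100a8 and S100a9 limit lifted, and its relative S100a4 at 219 and 680 CPM (1.63, 1.38 to 1.89).

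S100a4 was read in 10 saline and 18 NP cells, and S100a6 in 48 and 36. With each cell thinned at random to 2000 UMIs, S100a6 was read in 20 of 102 saline cells (19.6%) and 27 of 87 NP cells (31.0%). Vim, which encodes the intermediate filament vimentin, was at 375 and 799 CPM (1.09, 0.88 to 1.30), and Anxa2, a membrane-binding annexin, at 30.2 and 124 CPM (2.04, 1.37 to 2.77). Without the 2 NP cells of over 20000 UMIs the log2 ratio was 1.49 for Lgals1, 1.37 for S100a6, 1.22 for S100a4, 0.58 for Vim and 0.86 for Anxa2. The median of the whole list was then 0.58, and 6 of the 27 genes were at least 2-fold higher and none lower.

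Ccr2, a chemokine receptor for entry into inflamed tissue, was at 43.3 and 113 CPM (1.39, 0.79 to 2.02) and was read in 5 saline and 17 NP cells, of which 1 held 27 of the 83 NP UMIs. Its ratio was 0.86 without the 2 deepest NP cells and 0.90 without the cells that carried at least 10 UMIs of monocyte, macrophage or endothelial markers. Itgb1, the integrin beta 1 chain, was at 81.4 and 188 CPM (1.21, 0.77 to 1.67), or 0.52 (0.01 to 1.03) with mitochondrial UMIs under 5%. Id2, which favours effector over memory fate, was at 214 and 364 CPM (0.77, 0.48 to 1.06), and Ly6c2, a surface protein of memory CD8 T cells, at 171 and 304 CPM (0.83, 0.52 to 1.16).

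For Cd44, Il2rb and Cxcr3, which mark memory cells, the counting intervals spanned 0. Cd44 was at 32.8 and 39.6 CPM (0.27, -0.55 to 1.10), Il2rb at 76.1 and 92.8 (0.29, -0.24 to 0.82) and Cxcr3 at 36.8 and 38.2 (0.06, -0.75 to 0.87). The 3 genes with ratios below 0 were Ly6a, Eomes and Bcl2. Ly6a, which encodes the surface protein Sca-1, was at 113 and 54.6 CPM (-1.05, -1.63 to -0.49), or -1.69 with mitochondrial UMIs under 5%. Bcl2, the survival factor, was at 553 and 442 CPM (-0.32, -0.53 to -0.11).

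Effector genes were higher in the NP library, with large differences carried by few cells. Of 26 listed, 20 were measured, 19 of them higher and 1 lower, with a median log2 ratio of 0.74. At least 2-fold higher were 9 of the 20 (45.0%, against 4.58% of all genes), and none was at least 2-fold lower (against 2.45%). Ccl5 (chromosome 11, 83525778 to 83530518), a chemokine that draws T cells and monocytes, was at 1598 CPM in saline and 2615 in NP cells (0.71, 0.61 to 0.82). It was read in 12 saline and 23 NP cells.

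The Ccl5 transcripts lay in separate sets of high cells. In the saline library 7 of 102 cells had at least 10 UMIs of Ccl5 and held 1199 of its 1217 UMIs, with 77 to 325 UMIs each. In the NP library 15 of 87 cells did, and they held 1896 of 1916 UMIs, with 27 to 384 each. These were 6.86% (2.80 to 13.6%) and 17.2% (9.98 to 26.8%) of the cells, a log2 ratio of 1.33 (0.10 to 2.56). The limit of 10 UMIs was chosen after the values were seen, and the next lower cells had 9 and 8 UMIs. Among the high cells the median was 138 UMIs of Ccl5 in saline and 89 in NP cells, not scaled by depth, and the ranges overlapped.

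**Figure D1:**
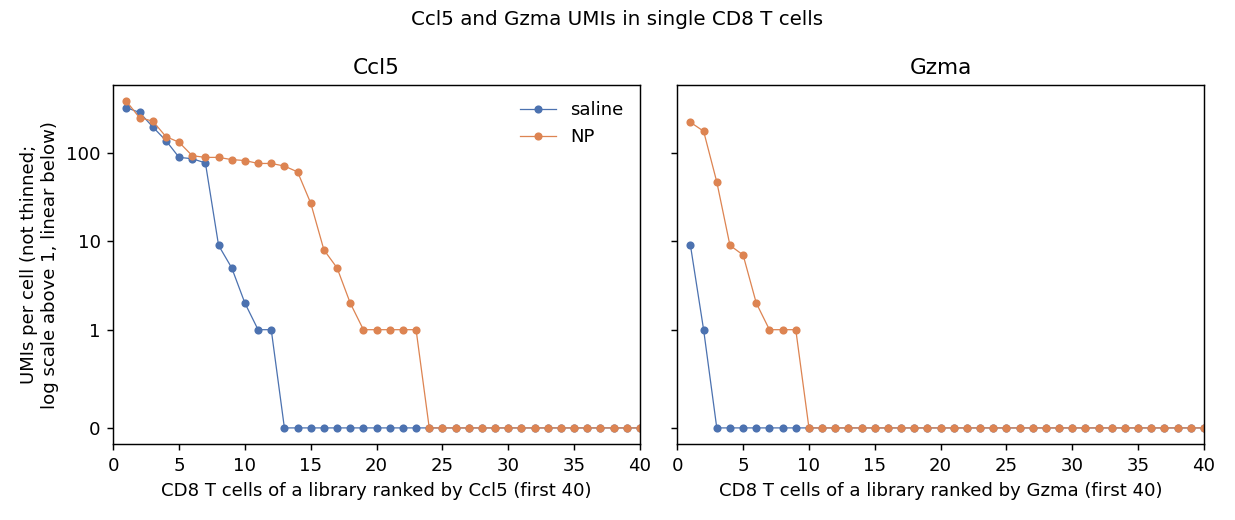
UMIs of Ccl5 (left) and Gzma (right) in single CD8 T cells, ranked within each library, for the first 40 cells; each point is 1 cell, and the y axis is logarithmic above 1 and linear below. The Ccl5 curve drops after 7 saline and 15 NP cells, and Gzma was read in 2 saline and 9 NP cells.

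Gzma (chromosome 13, 113093825 to 113100981), a granzyme that cells deliver into their targets, had the highest ratio of all genes measured. It was at 13.1 CPM in saline and 636 in NP cells (5.60, 4.71 to 6.67), from 10 and 466 UMIs. Those 466 UMIs came from 9 cells, of which 1 held 222 and the deepest cell 176, so the ratio rests on very few cells. Without the 2 deepest NP cells it was 5.04. Gzmb was at 11.8 and 41.0 CPM (1.79, 0.68 to 3.05), in 4 and 8 cells, and Ifng, the gene of interferon gamma, at 24.9 and 64.2 CPM (1.36, 0.57 to 2.21), in 8 and 11 cells. With mitochondrial UMIs under 5% Ifng was at 0.74 (-0.14 to 1.65), an interval that spans 0. Prf1, which encodes perforin, was at 52.5 and 51.9 CPM (-0.02, -0.70 to 0.66) in 28 and 26 cells.

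Nkg7, a cytotoxic granule protein, was read in 78 saline and 68 NP cells, at 473 and 674 CPM (0.51, 0.31 to 0.71). Ccl4, a chemokine made by activated T cells, was at 60.4 and 127 CPM (1.07, 0.55 to 1.61). Fasl, the ligand that triggers the death receptor Fas, was at 7.88 and 32.8 CPM (2.06, 0.73 to 3.64), in 3 and 12 cells. Serpinb9, an inhibitor that shields killer cells from their own granzyme B, was at 9.19 and 41.0 CPM (2.16, 0.94 to 3.59), in 3 and 14 cells, with no cell holding more than 4 UMIs. Fasl and Serpinb9 were thus read in more cells of the NP library, whereas Nkg7 was read in a like share of both.

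Plac8 was at 64.3 and 205 CPM (1.67, 1.20 to 2.17), but 1 NP cell held 60 of its 150 UMIs. Its log2 ratio was 0.38 without the cells that carried at least 10 UMIs of monocyte, macrophage or endothelial markers, and 1.04 without the 2 deepest NP cells. Ctsw and Cst7, lymphocyte cathepsin W and cystatin F, differed by 0.33 (0.02 to 0.65) and 0.45 (-0.25 to 1.16).

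**Figure D2:**
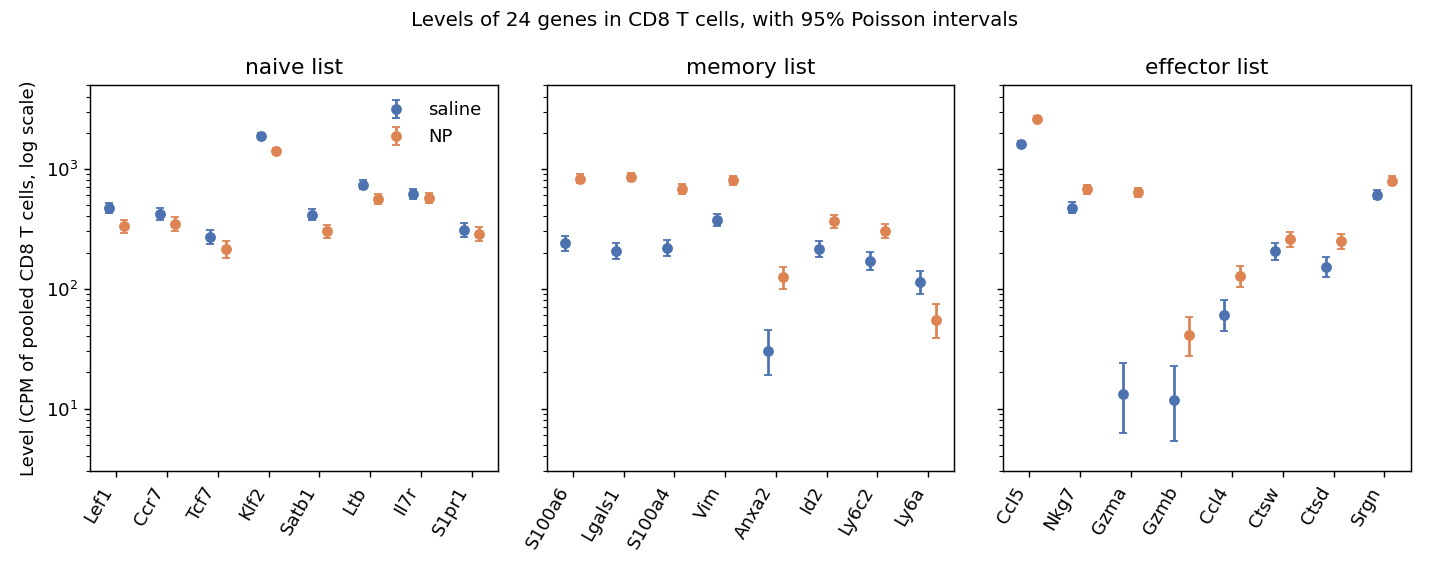
Levels of 24 genes in CD8 T cells, in CPM on a log scale, for the saline and NP libraries; points are pooled values of 102 saline and 87 NP cells and bars their 95% Poisson intervals, which cover counting error only. The 8 naïve genes lie lower in NP cells, 7 of the 8 memory genes higher (Ly6a lower) and the 8 effector genes higher.

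Of 10 listed genes of tissue residency 6 were measured, and most of these leaned the same way. Cxcr6, a chemokine receptor of lung-resident T cells, was at 26.3 and 112 CPM (2.09, 1.37 to 2.88), in 11 saline and 23 NP cells. Itga1, the collagen-binding integrin CD49a, was at 5.25 and 34.1 CPM (2.70, 1.17 to 4.68), and Rgs1, which dampens chemokine signals, at 95.8 and 171 CPM (0.83, 0.40 to 1.27). Itgae, which encodes the residency integrin CD103, was at 21.0 and 16.4 CPM (-0.36, -1.57 to 0.81), or -0.24 without the 2 deepest NP cells. Of the 6 measured residency genes, 5 were higher.

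Of 16 genes in the checkpoint list only 5 were measured, 4 of them higher, and Pdcd1, Lag3 and Havcr2 were below 20 UMIs. Bhlhe40, a factor of tissue-resident and activated T cells, was at 11.8 and 65.5 CPM (2.47, 1.43 to 3.68), in 6 and 20 cells. Ctla4, an inhibitory receptor, was at 18.4 and 58.7 CPM (1.68, 0.78 to 2.66), in 8 and 15 cells, while Tox, a factor of exhausted T cells, was at 34.1 and 30.0 CPM (-0.18, -1.07 to 0.69). The levels of Ctla4 and Bhlhe40 were low in both libraries.

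**Figure D3:**
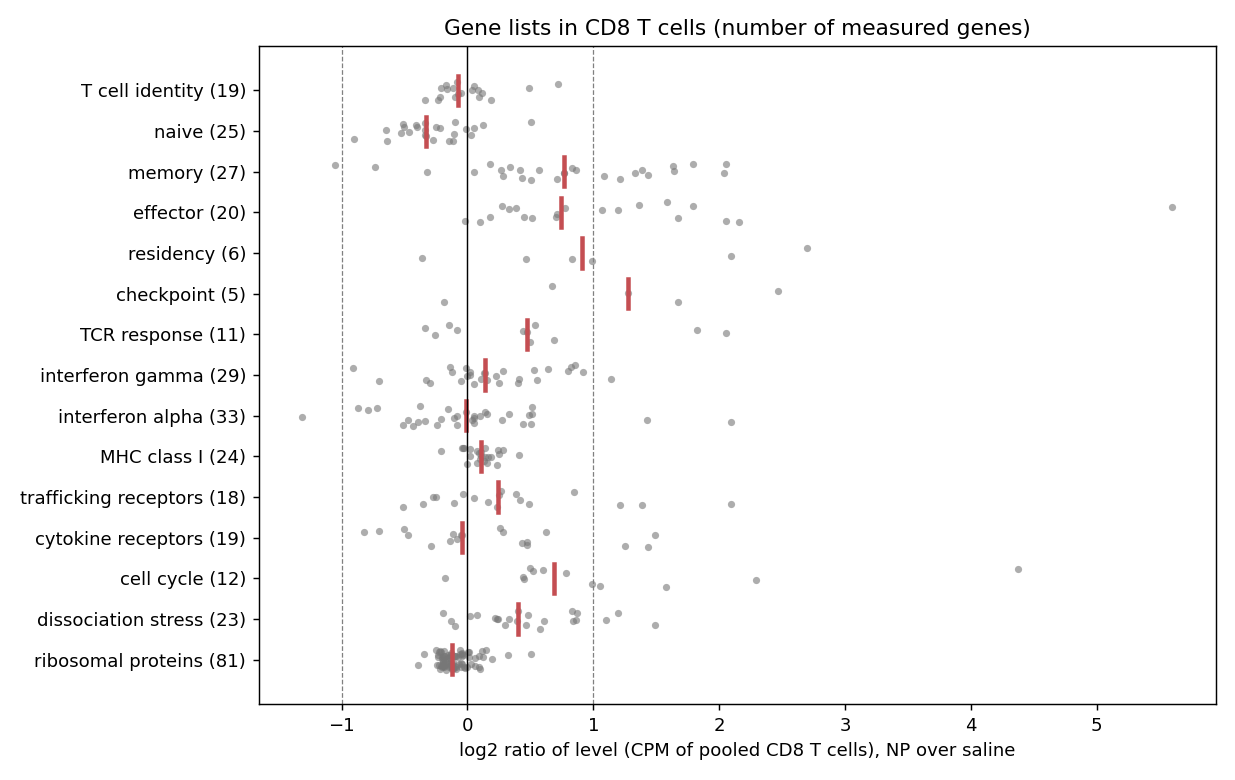
The log2 ratio of NP over saline levels in CD8 T cells for each measured gene of 15 lists (grey points, jittered vertically), with the list median (red bar), 0 (solid line) and 2-fold (dashed lines). The memory, effector, residency and checkpoint medians lie at 0.77, 0.74, 0.91 and 1.28, and the naïve median at -0.33.

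Among all genes, those furthest from 0 were named by a rule of at least 50 UMIs and no cell with over 33.3% of a library's UMIs. The 10 highest were Bhlhe40, Cks2, Ybx3, Sftpc, Cxcr6, Hopx, S100a6, Capg, Ifnar2 and Surf4. Cks2, a cofactor of cell cycle kinases, was at 13.1 and 62.8 CPM (2.26, 1.25 to 3.41), or 1.66 without the 2 deepest NP cells, Hopx, a gene of effector and memory T cells, at 28.9 and 101 CPM (1.81, 1.10 to 2.56), or 1.09 with the S100a8 and S100a9 limit lifted, and Ifnar2, a chain of the type I interferon receptor, at 22.3 and 62.8 CPM (1.49, 0.66 to 2.39). Without the 2 deepest NP cells Capg, an actin-capping protein, was at 0.94 in place of 1.68. The 10 lowest were Irf3, Atp6v1h, Tubb2a, Taf3, Sgms1, Atn1, Cd55, Vezf1, Setd5 and Vamp2. Irf3, a factor that induces type I interferon, was at 52.5 and 16.4 CPM (-1.68, -2.75 to -0.72), in 35 saline and 12 NP cells, and Cd55, an inhibitor of complement, at 82.7 and 36.9 CPM (-1.17, -1.87 to -0.49).

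The cells were then sorted by 2 small sets of genes, after each had been thinned at random to 2000 UMIs so that depth was equal, which left out no cell. The naïve core was a set of 4 genes of the naïve list, among them Lef1, Ccr7 and Tcf7, with at least 1 UMI, and the effector core Ccl5, Nkg7, Gzma, Gzmb, Gzmk, Prf1 and Ifng, with at least 2. Cells with the naïve core alone were 71 of 102 in the saline library (69.6%, 59.7 to 78.3%) and 51 of 87 in the NP library (58.6%, 47.6 to 69.1%), a log2 ratio of -0.25 (-0.56 to 0.07). Cells with the effector core alone were 6 (5.88%, 2.19 to 12.4%) and 13 (14.9%, 8.20 to 24.2%), a log2 ratio of 1.34 (0.01 to 2.68). This ratio was 0.55 (-0.46 to 1.57) at 1000 UMIs a cell, 0.97 (-0.42 to 2.36) with mitochondrial UMIs under 5% and 1.26 (-0.09 to 2.61) without the 2 deepest NP cells, so that its interval then spanned 0. Both cores were found in 21 and 17 cells, and neither in 4 and 6.

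The naïve core, with or without the other, had a share of 90.2% in the saline and 78.2% in the NP library (-0.21, -0.39 to -0.02), and without thinning of 95.1% and 90.8% (-0.07, -0.18 to 0.05). The effector core had shares of 26.5% and 34.5% (0.38, -0.25 to 1.01), and the interval spans 0. Without thinning the effector shares were 68.6% and 71.3%. Exactly 2 effector UMIs, the fewest that count, were held by 13 saline and 10 NP cells and 27 and 19 cells had exactly 1, so a good part of the class sat at its edge. At 10 UMIs or more, a limit set after the values were seen, the shares were 6.86% and 16.1% (1.23, -0.01 to 2.47).

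Endothelial cells, which should lack the effector core, give its background. In endothelial cells thinned to the same depth (medians of 4018 and 4077 UMIs before thinning, below those of CD8 T cells) the effector core was found in 0 of 270 saline cells, which allows a share of up to 1.11% at a limit of 3 counts, and in 1 of 996 NP cells. CD4 T cells had it in 4.94% and 6.38%, and NK cells in 100% of both libraries. The naïve core, which needs only 1 UMI, was found in 5.93% and 4.32% of endothelial cells, 68 of 110 saline and 69 of 115 NP NK cells, and 88.9% and 83.0% of CD4 T cells, all at the same thinned depth.

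**Figure D4:**
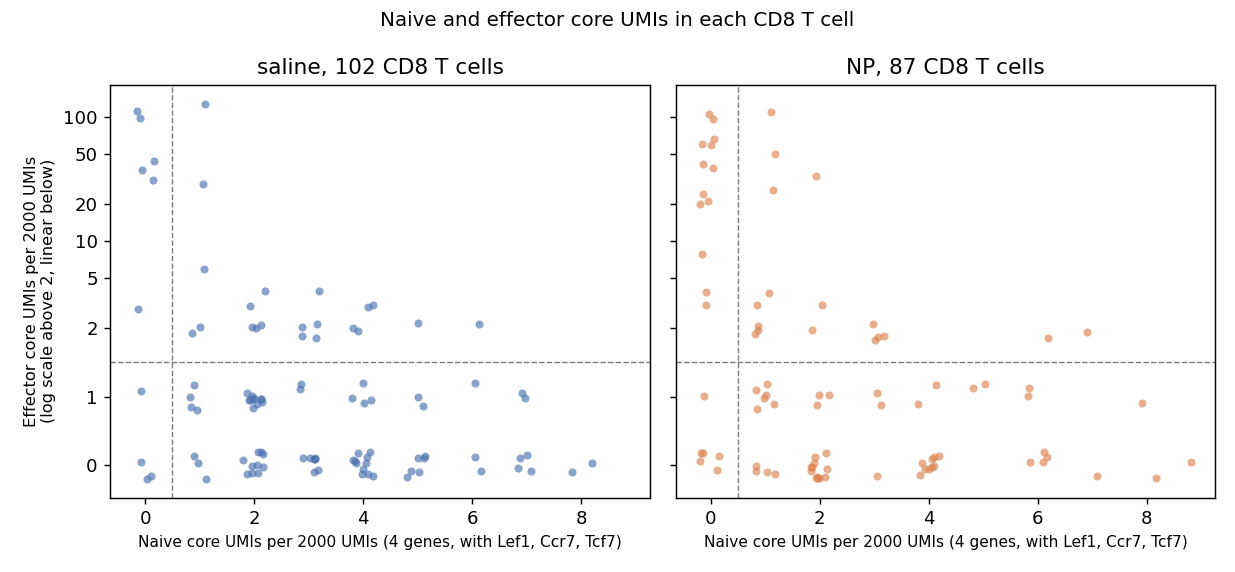
UMIs of the naïve core (x axis) and effector core (y axis, logarithmic above 2 and linear below) in each CD8 T cell thinned to 2000 UMIs, jittered, for saline (left) and NP (right); dashed lines mark the class limits. Cells with at least 10 effector UMIs had 0 to 2 naïve UMIs, and there were 7 in the saline and 14 in the NP panel.

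Cells with the effector core were then set beside the other CD8 T cells of the same library. Outside the core, genes at higher levels in them included Ccl4, at 199 CPM against 7.26 in the saline library and 333 against 8.60 in the NP library. Hopx was at 94.9 against 3.63 and 228 against 27.9, and S100a4 at 602 against 72.6 and 1440 against 243. Genes lower in them included Id3, a factor of naïve and long-lived cells, Tdrp and Selenop. These cells were chosen by effector UMIs, so the values are a description of the class.

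The comparison was repeated within the classes. The effector core class itself differed in makeup, since 7 of its 27 saline and 14 of its 30 NP cells had at least 10 effector UMIs. In the 27 saline and 30 NP cells with the effector core, the memory list had a median log2 ratio of 1.00, with 13 of 26 genes at least 2-fold higher, against 6.97% of the 2899 genes measured there. Neutrophil markers summed to 770 UMIs in the saline and 152 in the NP cells of this class, and 1 saline cell held 351 of its 477 UMIs of S100a9. Markers of CD4 and regulatory T cells summed to 7 and 39 UMIs, with Ctla4 the most abundant, and those of innate-like T cells to 2 and 14. The part of these transcripts in the result was not tested. Lgals1 differed by 2.19 (1.88 to 2.52), Id2 by 1.91 (1.38 to 2.48) and Cxcr6 by 2.85 (1.72 to 4.22). Without the deepest NP cell, which belonged to this class, Lgals1 was at 1.64 (1.31 to 1.98) and Id2 at 1.97 (1.43 to 2.54), and the memory median was 0.69. The naïve list had a median of -0.36 in the class, and of -0.19 without that cell.

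In the other 75 saline and 57 NP cells the naïve list had a median of -0.23, with 21 of 25 genes lower, against 51.9% of the 4933 genes measured there. Dissociation stress genes were higher for 22 of 23 in these cells, with a median of 0.48, NK cell markers summed to 21 and 148 UMIs (21 and 55 without its NP cell of over 20000 UMIs) and endothelial markers to 69 and 124, and their part in the result was not tested. Lef1 differed by -0.46 (-0.73 to -0.19) and Klf2 by -0.23 (-0.37 to -0.09), but Ccr7 by -0.01 (-0.29 to 0.27). Ly6c2 was higher by 1.17 (0.77 to 1.58) in them, and by 0.16 (-0.38 to 0.71) in cells with the effector core. The NP cell with 494 UMIs of Lyz2 was among these other cells, where monocyte and macrophage markers summed to 33 and 536 UMIs. Without it Ly6c2 was at 0.89 (0.46 to 1.31). The memory list had a median of 0.30, with 14 of 22 genes higher, but of 0.05 without that cell, with 10 of 19 higher. The effector list had a median of 0.02 over the 10 genes measured in these other cells. They were selected for under 2 effector core UMIs, so a small difference was in part set by the selection. The summed level of the list had a log2 ratio of 0.31 (0.19 to 0.44), or 0.22 (0.09 to 0.34) without that deep cell.

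Interferon gamma acts on nearly all cells, through receptors that activate transcription from short promoter elements, and its targets include guanylate-binding proteins, immunity-related GTPases and the immunoproteasome. Of 29 measured genes of the list, 20 were higher and 9 lower in NP CD8 T cells, with a median of 0.14. At least 2-fold higher was 1 of them (3.45%, against 4.58% of all genes). That gene was Gbp2b, a guanylate-binding protein, at 42.0 and 92.8 CPM (1.14, 0.52 to 1.80), of which 1 NP cell held 28 of 68 UMIs. Its ratio was 0.19, and the median of the list 0.00, without the cells with markers of monocytes, macrophages or endothelium. In cells with the effector core the list had a median of -0.26, with 14 of 20 genes lower, as were 1299 of all 2899 measured there. In the other CD8 T cells the median was 0.29, with 25 of 28 genes higher, as were 2371 of all 4933. The difference between these 2 classes was not tested.

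Irf1, an early factor of the response, was at 91.9 and 160 CPM (0.80, 0.36 to 1.25), in 46 saline and 53 NP cells. Socs3 and Socs1, inhibitors of cytokine signalling, were at 78.8 and 149 CPM (0.92, 0.45 to 1.40) and at 91.9 and 135 CPM (0.56, 0.10 to 1.02). The GTPase Igtp was at 73.5 and 80.5 CPM (0.13, -0.42 to 0.69), Ifi47 at 219 and 175 CPM (-0.33, -0.67 to 0.01) and Gbp8 at 53.8 and 28.7 CPM (-0.91, -1.74 to -0.12). Irgm1 and Gbp3, from the same families, were at 0.85 (0.00 to 1.75) and 0.64 (-0.40 to 1.73), so the GTPases had ratios on both sides of 0. In endothelial cells the same list had a median of 1.35, with 25 of 37 measured genes at least 2-fold higher (2.89% of all genes measured in those cells), and Igtp was higher by 2.11 (1.77 to 2.48). The difference between these cell classes was not tested.

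The promoter elements of some genes of the list are shown as a description. The counting intervals of the ratios of these genes overlap. Both strands of the 250 bases before each start were searched for the core of an interferon-stimulated response element, GAAA and GAAA with any 2 bases between them, and for TTCNNNGAA, the core of a gamma-activated site, and matches may overlap. Sequences are from RefSeq on GRCm38.p6, read 5′ to 3′ on the strand of the gene, with matches in capitals.
Gbp2b: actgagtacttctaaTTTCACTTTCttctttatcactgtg
Igtp: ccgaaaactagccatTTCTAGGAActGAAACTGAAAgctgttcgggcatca
Irgm1: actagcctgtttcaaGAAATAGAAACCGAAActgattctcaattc
Irf1: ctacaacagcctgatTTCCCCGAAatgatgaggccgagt
The Gbp2b stretch is at chr3:142594695-142594734 on the plus strand, that of Igtp at chr11:58199496-58199546 on the plus strand, that of Irgm1 at chr11:48871421-48871465 on the minus strand and that of Irf1 at chr11:53769909-53769947 on the plus strand. Irgm1 held 2 overlapping matches of the first pattern. Igtp held both patterns with a log2 ratio of 0.13. Irf1, with 0.80, held the second alone before the start shown and neither pattern before another start. Of the 29 genes 20 had a promoter in the table. The first pattern was found before 9 of the 20 (45.0%), against 3.46% of 27025 genes, and the second before 7 (35.0%), against 8.13%. Of 27 type I interferon genes 12 (44.4%) held the first pattern and 4 (14.8%) the second. A match of letters is a description and does not show that a factor binds there.

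MHC class I genes, which interferon induces, were slightly higher as a group, with 19 of 24 above 0, a median of 0.11 and none at 2-fold. H2-D1 was at 4155 and 4468 CPM (0.10, 0.03 to 0.18), B2m at 1922 and 2061 (0.10, 0.00 to 0.21) and Psmb9, an immunoproteasome subunit, at 281 and 341 (0.28, 0.01 to 0.55). Of the type I interferon genes 16 of 33 were higher, with a median of -0.01, which was -0.38 without the cells with markers of monocytes, macrophages or endothelium.

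Several gene groups of other kinds differed between the libraries, and their part in the results above was not tested. Immediate early and heat shock genes, which rise when tissue is dissociated, were higher in NP cells for 20 of 23 genes, with a median of 0.40. Junb was at 965 and 1473 CPM (0.61, 0.47 to 0.75) and Hsp90ab1 at 1084 and 1332 (0.30, 0.16 to 0.43). Egr1, an early gene of T cell receptor signals that is also induced by dissociation, was at 26.3 and 109 CPM (2.06, 1.34 to 2.84), chosen for mention after its value was seen. Ribosomal protein genes were lower for 66 of 81, with a median of -0.13.

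Cell cycle genes were higher for 11 of 12, with a median of 0.69, and for 8 of the 10 still measured without the 2 deepest NP cells, with a median of 0.19. A single NP cell, the deepest with 33244 UMIs, held 51 of 60 UMIs of Pclaf and 171 of 443 of Hmgb2, which was at 0.99 (0.76 to 1.22) with and 0.33 (0.07 to 0.59) without the 2 deepest cells. This cell also had 176 UMIs of Gzma, 11 of Mki67 and 82 of the histone gene Hist1h1b.

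Transcripts of other cell types were present at low levels. Monocyte and macrophage markers summed to 44 UMIs in saline and 564 in NP cells, of which 494 were Lyz2 in the NP cell with 25669 UMIs, without which and the other deep cell Lyz2 had a log2 ratio of 0.74, and 2 of the 5 markers were at 0. Endothelial markers summed to 87 and 149 UMIs, with all 4 detected and Pecam1 the most abundant, of which 1 NP cell held 17 of 51. The NK cell markers summed to 48 and 184, nearly all from Fcer1g and Tyrobp, of which 1 NP cell held 45 of 100 and 48 of 81, with 3 of 6 at 0, and the sums were 48 and 69 without the 2 deepest NP cells. B cell markers summed to 83 and 72 UMIs, mostly Ighm, epithelial markers to 57 and 47, red cell markers to 13 and 8, those of innate-like T cells to 7 and 21, and markers of CD4 and regulatory T cells to 32 and 65, of which Ctla4 gave 14 and 43. Neutrophil markers summed to 1521 and 858 UMIs and were lower in NP cells for all 4 measured. Sftpc, the surfactant gene of alveolar epithelium, was at 13.1 and 58.7 CPM (2.16, 1.15 to 3.32), in 10 and 34 cells and at most 3 UMIs a cell, and barcodes with under 50 UMIs held it at 1457 and 5411 CPM. With free RNA subtracted its ratio was 0.43. S100a6 was also plentiful in such barcodes, at 9903 CPM in saline and 5982 in NP libraries, and its ratio was 2.42 after subtraction. Scaled by S100a8 and S100a9, free RNA came to 0.962% and 0.987% of CD8 T cell UMIs at most.

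CD4 T cells and NK cells of the same libraries, gated alike, give the values to set beside these. Saline CD4 T cells held more transcripts of other cell types, with 3508 UMIs of neutrophil markers against 569 in NP cells, 4252 of red cell markers against 13 and 252 of epithelial markers against 60. Saline NK cells held 1002 UMIs of neutrophil markers against 516 in NP cells. Endothelial markers went the other way, with 98 and 209 UMIs in CD4 T cells and 64 and 258 in NK cells, and the part of these transcripts in the values was not tested. In 162 saline and 141 NP CD4 T cells the naïve, memory and effector medians were -0.11, 0.19 and -0.07. Lef1 and Klf2 were at -0.30 (-0.49 to -0.13) and -0.33 (-0.43 to -0.23) there, while S100a6 differed by 0.03 (-0.19 to 0.26) and Ccl5 by 0.18 (-0.14 to 0.49). In 111 and 115 NK cells the 3 medians were 0.00, 0.11 and 0.07, with S100a6 higher by 0.66 (0.50 to 0.81) and Ccl5 by 0.01 (-0.02 to 0.05). The interferon gamma list had medians of 0.31 in CD4 T cells and 0.26 in NK cells, and dissociation stress -0.02 and 0.17. Residency genes were also higher in these classes, with medians of 0.43 in CD4 T cells (5 of 6 genes higher) and 0.54 in NK cells (5 of 5). Checkpoint medians were 0.64 (8 of 9 higher) and 0.31 (6 of 8). Of all measured genes 3568 of 7086 were higher in CD4 T cells and 2916 of 6306 in NK cells. With 1 library per treatment, differences between the classes were not tested.

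**Figure D5:**
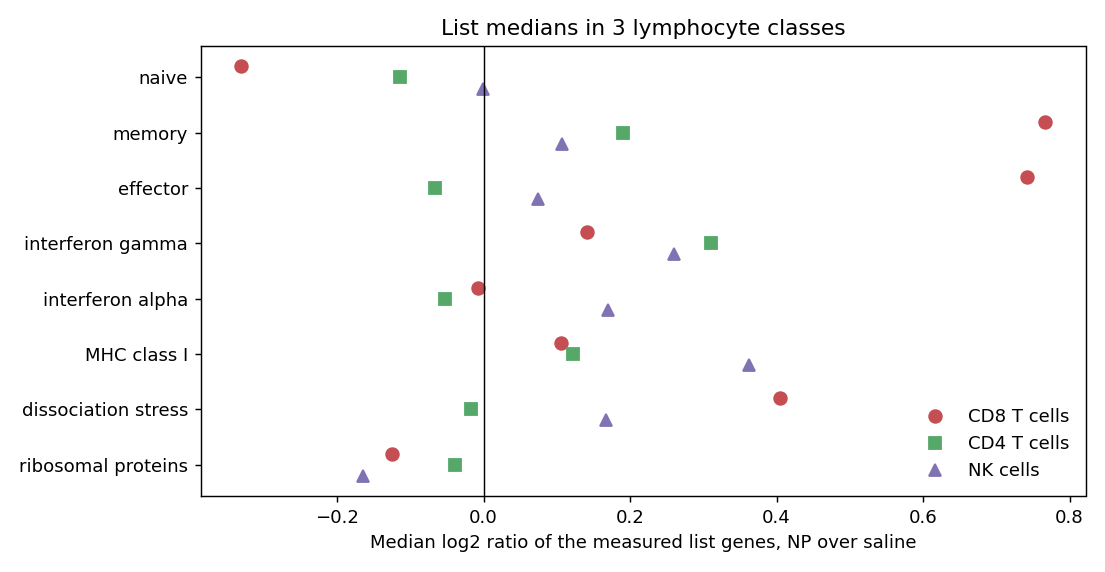
Median log2 ratio of NP over saline for 8 gene lists in CD8 T cells (circles), CD4 T cells (squares) and NK cells (triangles). The memory and effector medians lie at 0.77 and 0.74 in CD8 T cells and between -0.07 and 0.19 in the other classes.

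Variable genes of the T cell receptor beta chain were too rarely read to describe clones. In the saline library 17 of 102 cells had a Trbv UMI (16.7%, 10.0 to 25.3%), and in the NP library 18 of 87 (20.7%, 12.7 to 30.7%). Among the 17 cells of each library with exactly 1 Trbv gene, Trbv13-1 was found in 6 saline and 0 NP cells and Trbv13-2 in 0 and 4, and 0 of 17 allows a share of cells with such a UMI of up to 17.6% at a limit of 3 counts. The reads of these near-identical genes may be split by the counting.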

How the data were processed

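The authors aligned 10x reads to mm10 with Cell Ranger (6.0 in the processing notes, 4 in the matrix headers) and deposited UMI counts for 32285 genes per library without cell selection (91168129 saline and 90081747 NP UMIs). The gate given above was applied to these counts with Python 3.11.15, numpy 2.4.6, scipy 1.17.1 and pandas 2.3.3. CPM ratios have exact conditional binomial intervals, with counts under 3 set to 3, and share ratios log-normal (Katz) intervals. The methods' rank test over cells was not used, since cells are not replicates.

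Genes that could be named were the 10 highest and 10 lowest ratios, all measured genes of the naïve, memory, effector, interferon gamma and marker lists, and the 4 most abundant genes of other lists. Not all of these are printed, and those that are were picked with their values known. Genes named outside this rule (among them Itga1, Itgae, Tox, Egr1 and Pclaf) were chosen after their values were seen. 1 gene of the naïve core is not reported here. The members and lists were chosen with earlier results of these data known. CD4 T cells needed Cd4 and no Cd8 UMI, NK cells no Cd3 and at least 2 UMIs of Ncr1 and Klrb1c, and endothelial cells at least 3 of Cdh5, Cldn5 and Pecam1 with no Ptprc. Positions are from GENCODE on GRCm38, with 99.8% of gene identifiers found. Alternatives were other gates, depths, scalings and minimums, removal of doublets (Scrublet in scanpy 1.11.5) and subtraction of free RNA. The gene calculation was tested on simulated data, drawn as independent counts without differences between cells. That check does not cover genes whose UMIs lie in few cells.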

Additional observations from a re-analysis of the deposited data

Results flagged for a closer look

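Some genes had ratios of opposite sign in CD8 and CD4 T cells, with counting intervals that excluded 0 in both. The differences were not tested, as there was 1 library per treatment. Gzma was higher by 5.60 on the log2 scale in NP CD8 T cells and at -4.25 in CD4 T cells, where it had 66 saline UMIs, 64 of them in 1 cell, and 1 NP UMI, set to the floor of 3 counts. Ccl4 was at 1.07 in CD8 and -2.40 in CD4 T cells, and Fos at 0.87 and -0.99. Ly6a went the other way, at -1.05 in CD8 and 1.87 in CD4 T cells. The lower genes Tubb2a and Sgms1 were at -1.50 and -1.25 in CD8 T cells and at 0.77 and 0.48 in CD4 T cells. For the NK cell markers the summed ratio was 1.99 in CD8 and -2.70 in CD4 T cells, with Tyrobp at 1.94 and -2.65 and Fcer1g at 2.00 and -2.61. Without the 2 deepest NP CD8 T cells Tyrobp, Fcer1g and Fos were at 0.76, 0.61 and 0.47 in CD8 T cells. The intervals of Tyrobp and Fcer1g then spanned 0. Without the CD8 T cells with markers of other types Tyrobp was at -0.37 (-1.42 to 0.65), so its sign in CD8 T cells did not hold. Sftpc, which was at most 3 UMIs in any CD8 T cell, was at 2.16 and -1.21, with 114 of its 153 saline CD4 UMIs in 1 cell. Of the 120 saline CD4 UMIs of Fcer1g 1 cell held 33, and of the 49 of Ccl4 1 cell held 20.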

How the results depend on the processing

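With 1 library per treatment, leaving out a replicate was not possible, and no interval covers the spread between mice. No paired analysis was possible because each group has 1 library. The naïve median stayed between -0.39 and -0.20, the memory median between 0.53 and 0.83 and the effector median between 0.61 and 0.93 over the alternatives run. Without the cells with markers of other types, left out after seeing the data, 177 genes were at least 2-fold higher and 179 lower. Tyrobp was then at -0.37. With a minimum of 5 UMIs the counts of genes at least 2-fold higher and lower were 855 and 432, and with 100 UMIs 26 and 1. Without the S100a8 and S100a9 limit the share of CD8 T cells among the cells left had a log2 ratio of -0.12. The naïve core at 2 UMIs gave -0.45, and the effector core at 10 UMIs, chosen after seeing the data, 1.23. S100a6 was at 0.39, Hopx at 1.09 and Cks2 at 1.58 without the S100a8 and S100a9 limit. With mitochondrial UMIs under 5% Ccl5, Ifng, Itgb1 and the checkpoint median were at 0.38, 0.74, 0.52 and 0.76. The cause of these moves was not tested. Scrublet marked 1 of 8662 saline cells and 311 of 8333 NP cells, 2 of them CD8 T cells, so it did not work in the saline library and doublets were in effect removed only from the NP library.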

Other observations

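The gene groups of CD8 T cells given in this section had medians nearer to 0 than the memory and effector lists. The residency and checkpoint medians, at 0.91 and 1.28, lay further from 0. Genes of T cell identity had a median log2 ratio of -0.07 over 19 genes, kinases and adaptors of T cell receptor signalling 0.04 over 19, and survival and death genes 0.14 over 12, with a range of -0.11 to 0.27 over the alternatives. Trafficking receptors had a median of 0.24 over 18 genes, with 12 higher, but of 0.07 with mitochondrial UMIs under 5%, and genes that respond to T cell receptor signals 0.47 over 11, which was 0.25 without the cells with markers of other types. Cytokine receptors had a median of -0.04 over 19 genes, with 9 higher and 10 lower. Within them, Il6ra and Il27ra, receptors for IL-6 and IL-27, were at -0.82 (-1.51 to -0.15) and -0.70 (-1.19 to -0.22), and Il7r, the most abundant, at -0.11, or 0.00 without the 2 deepest NP cells. The first 2 were named after their values were seen.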
